A study of Mus musculus with 8 samples.

Results

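The RNAs described here are 8 named long noncoding RNAs, Malat1, Neat1, Meg3, Rian, Mirg, H19, Gas5 and Snhg1, chosen by gene name from a table of read counts of the mouse left ventricle (LV). Of these 8 names, 7 had counts in the 46040 genes of the table, all 7 passed the filter on low counts, and the host gene Snhg1 was not analysed here. A second row named Meg3 and a second row named Rian, ENSMUSG00000098724 and ENSMUSG00000107391, held no count in any library.

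RNA was sequenced from the LV in 8 libraries, made from mice that had received angII for 2 weeks at 0.1 mg/kg/h, a pump infusion that raises blood pressure and brings on LV hypertrophy. According to the labels, all mice were of the C57BL/6 strain. The study's methods describe VEGFR-1 TK-/- mice, which carry an Flt1 allele lacking the intracellular tyrosine kinase (TK) domain, and their littermate controls, all male and 5 to 7 months old. The comparison asks how LV RNA levels differ after angII where VEGFR-1 cannot signal through its kinase domain. Each group held 4 libraries, every mouse had received angII, and only mice that survived to day 14 were sampled. For each sample the genotype tag and library name disagree with the title, which gives the opposite genotype. Here the library names decide the group. C1 to C4 stand for control replicates 1 to 4 and T1 to T4 for TK-/- replicates 1 to 4, and any difference between them changes sign if the titles hold instead. Ribosomal RNA depletion is named in the labels but poly-A selection in the study's methods, and the library names speak of cardiomyocytes where the tissue label says LV.

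Long noncoding RNAs act without being translated. Malat1 and Neat1 are neighbouring nuclear RNAs, of which Neat1 is the scaffold of paraspeckles and Malat1 collects in nuclear speckles, the bodies rich in splicing factors. The longer form of Neat1 and Malat1 carry no ordinary poly(A) tail, because RNase P cuts their 3′ ends and a triple helix of 2 uridine-rich stretches and a final A-rich tract protects them. Meg3, Rian and Mirg are transcribed from the maternal allele of the imprinted Dlk1-Dio3 region and host small RNAs, snoRNAs in Rian and microRNAs chiefly in Mirg. H19 is the maternally expressed partner of Igf2 and the precursor of miR-675. Gas5 and Snhg1 are hosts of snoRNAs, which lie in their introns, and their spliced RNAs are degraded by nonsense-mediated decay.

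The 3′ ends of both nuclear RNAs are shown first because the kind of end bears on what poly-A selection retains. Each is read 5′ to 3′ from the GENCODE transcript on the minus strand of GRCm38, with the uridine-rich stretches, written with T, and the end of the A-rich tract in capitals. The Malat1 stretch covers chr19:5795977-5796072, transcript bases 6601 to 6696 of 6983, so that 292 annotated bases follow the A-rich tract. The Neat1 stretch covers chr19:5824708-5824802, the last 95 bases of the 20771-base form. The third line is the end of the short Neat1 form, chr19:5842307-5842366, in which the capitals mark the polyadenylation signal AATAAA.
Malat1: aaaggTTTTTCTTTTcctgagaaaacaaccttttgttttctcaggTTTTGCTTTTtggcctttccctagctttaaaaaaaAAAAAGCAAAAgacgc
Neat1, long form: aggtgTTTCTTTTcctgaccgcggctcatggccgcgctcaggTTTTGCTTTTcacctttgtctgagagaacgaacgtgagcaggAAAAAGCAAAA
Neat1, short form: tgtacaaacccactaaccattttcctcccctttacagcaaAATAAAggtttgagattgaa

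The microRNAs hosted by the imprinted RNAs were taken from RefSeq for GRCm38.p6. Within 4 of the RNAs lay 37 mature microRNAs of 20 hairpins, 26 of them in Mirg, 6 in Rian, 3 in Meg3 and 2 in H19. Their seeds, bases 2 to 8, were of 36 kinds, and the single seed that occurred more than once was that of miR-453 and miR-496a-5p, both in Mirg. The lines below give this pair and examples from the other 3 host RNAs, 5′ to 3′ with the seed in capitals.
mmu-miR-453, in Mirg: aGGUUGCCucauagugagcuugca
mmu-miR-496a-5p, in Mirg: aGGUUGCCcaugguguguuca
mmu-miR-370-3p, in Rian: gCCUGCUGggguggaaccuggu
mmu-miR-770-5p, in Meg3: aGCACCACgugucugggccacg
mmu-miR-675-5p, in H19: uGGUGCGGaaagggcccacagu
mmu-miR-675-3p, in H19: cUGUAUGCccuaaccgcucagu

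The libraries held 11449137 to 16239670 counts on genes. Levels are given as normalized CPM, counts scaled to the TMM-adjusted library total. The groups were compared by the quasi-likelihood test of edgeR over the 13542 genes that reached 1 CPM in 2 or more libraries, with Benjamini-Hochberg adjustment (FDR), and a call needed an FDR below 0.1 together with a difference of 1.5-fold or more. The targeted gene Flt1 stood at 69.2 ± 11.3 in controls and 157 ± 13.2 in TK-/- mice (normalized CPM, SD, n = 4 each; log2 fold change 1.19, SE 0.12, FDR = 0.00808 by edgeR), a whole-gene count that cannot show the loss of 1 domain. Markers of cardiomyocytes, such as Myh6, were at 64781 to 103891 summed normalized CPM per library, and those of adipocytes at 0 to 1.61.

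None of the 7 long noncoding RNAs was called between the groups, where the call rule took 1 of 13542 genes (0.00738%), the gene Flt1. At an unadjusted p under 0.05, 0 of the 7 passed, beside 1213 of all genes tested (8.96%), and for 0 of the 7 were the groups free of overlap, beside 675 of all genes tested (4.98%). The likelihood ratio test of edgeR called 0 of the 7, beside 53 of all genes tested (0.391%), and gave 0 of the 7 an unadjusted p under 0.05, beside 1238 of all genes tested (9.14%). Malat1, Neat1 and H19 had the higher mean in the TK-/- libraries, and Meg3, Rian, Mirg and Gas5 the lower. The log2 fold changes lay between -0.26 and 0.26, with a median of -0.03, beside a median of -0.0012 over all genes tested.

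**Figure D1:**
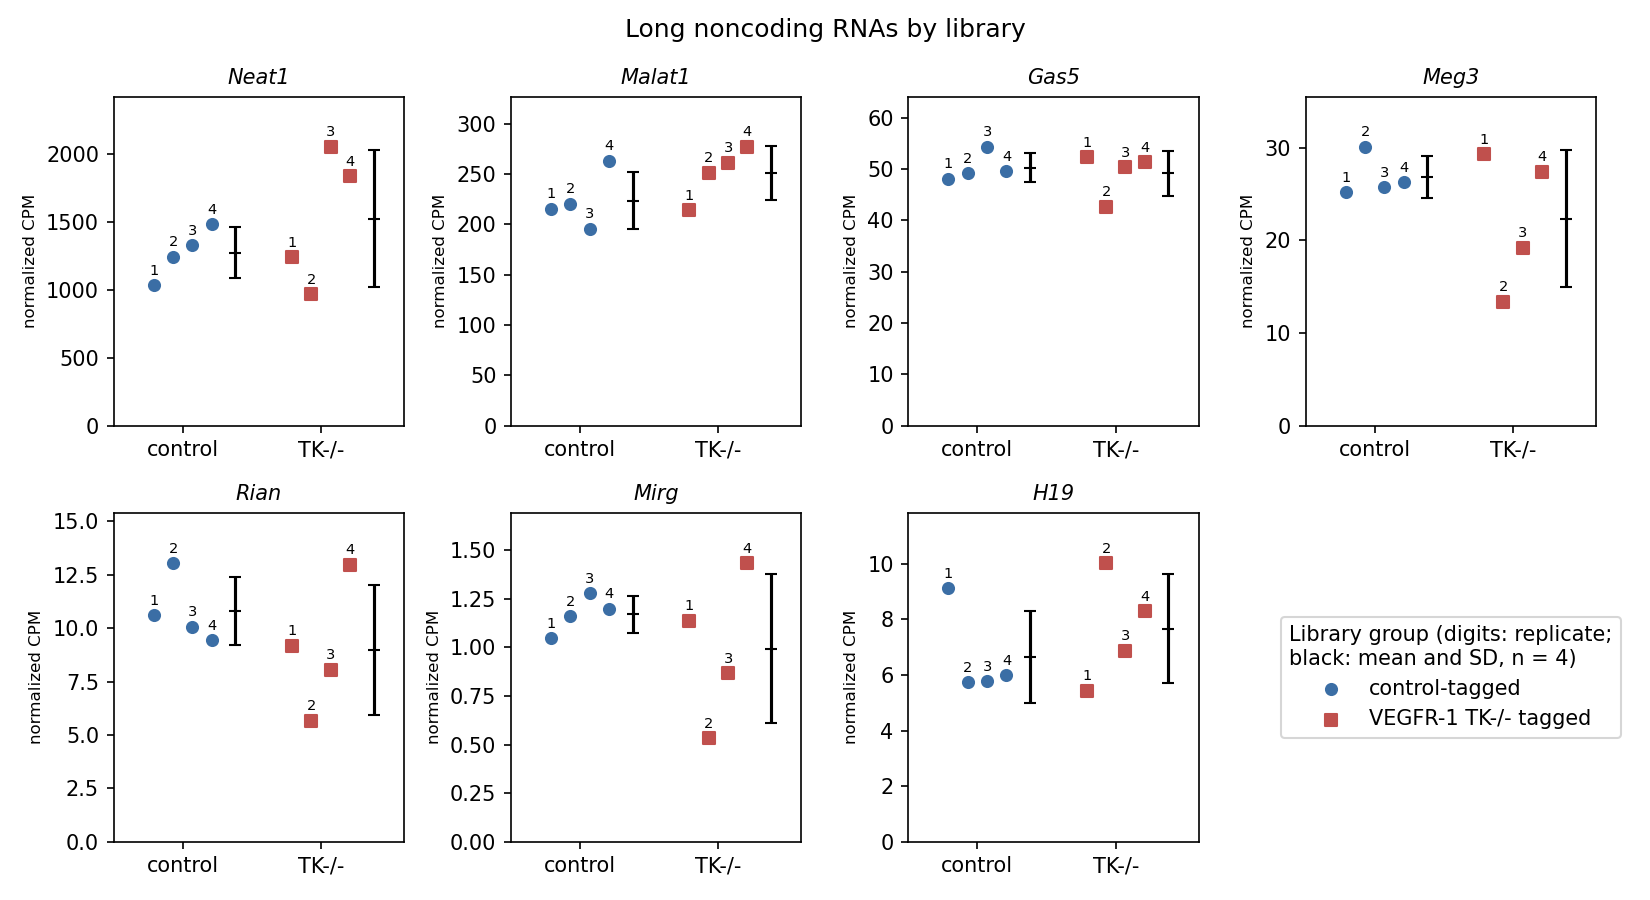
Normalized CPM of the 7 long noncoding RNAs in each library (y axis from 0, a scale of its own per RNA), with circles for control and squares for TK-/- libraries, digits for the replicate, and black bars for the mean and SD (n = 4). The groups overlap for every RNA, and T2 is the lowest library for Neat1, Gas5, Meg3, Rian and Mirg and the highest for H19.

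Neat1 (ENSMUSG00000092274, chr19:5824708-5845478, minus strand of GRCm38) was the most abundant of the RNAs. Its normalized CPM in C1 to C4 was 1035, 1243, 1327 and 1483. T1 to T4 gave 1240.4, 966, 2052 and 1836. T3 and T4 thus lay above every control library, and T2 lay below all of them. The means were 1272 ± 187 and 1524 ± 506 (SD, n = 4 each), and the log2 fold change was 0.26 with a 95% interval from -0.22 to 0.74 (SE 0.22, FDR = 0.753 by edgeR). The 2-sided exact permutation test over the 70 splits into 4 and 4, whose smallest p is 0.0286, gave p = 0.486 for Neat1. The table counts both Neat1 forms in 1 row, so the long and the short form are not told apart.

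Malat1 (ENSMUSG00000092341, chr19:5795690-5802672, minus strand) lies 22.0 kb beyond the 3′ end of Neat1. Its normalized CPM in C1 to C4 was 215, 220.2, 195 and 263. T1 to T4 gave 214, 251, 261 and 277. All TK-/- libraries but T1 lay above the control mean, and 1 lay above the highest control library. The means were 223 ± 28.4 and 251 ± 26.7 (SD, n = 4 each), and the log2 fold change was 0.17 with a 95% interval from -0.09 to 0.42 (SE 0.12, FDR = 0.705 by edgeR; exact permutation p = 0.286). This interval corresponds to folds from 0.939 to 1.34.

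Neat1 took 74.9% to 85.6% of the summed counts of the 7 RNAs, which together made up 0.127% to 0.228% of the counts of a library. The ratio of Neat1 to Malat1 counts ran from 3.85 in T2 to 7.86 in T3, so both extremes fell in the same group. Its group means were 5.72 ± 0.814 and 6.03 ± 1.69 (SD, n = 4 each; exact permutation p = 0.886). Over the 8 libraries the levels of Malat1 and Neat1 on the log2 scale had a Pearson r of 0.54 (permutation p = 0.176, 0.336 adjusted over 21 pairs of the RNAs) and a Spearman rho of 0.52 (p = 0.197, 0.516 adjusted), and r was 0.52 without the 2 libraries farthest from the Malat1 median.

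Proteins of the bodies that hold these RNAs were taken as lists. All 14 paraspeckle proteins, such as Sfpq and Nono, were tested, 0 had an unadjusted p under 0.05, and their log2 fold changes lay between -0.14 and 0.14 with a median of 0.0058. Of 11 nuclear speckle proteins, 2 had a p under 0.05, both higher in the TK-/- libraries, beside 3.32% of all genes tested in that direction. These were the splicing coactivator Srrm1 (log2 fold change 0.39, SE 0.15, FDR = 0.506 by edgeR) and the splicing factor Srsf2 (0.24, SE 0.09, FDR = 0.506). The groups did not overlap for 2 of the 11, Srsf2 and Srsf1 (unadjusted p = 0.163 for Srsf1 by edgeR), beside 4.98% of all genes tested. The 9 speckle genes other than Srrm1 and Srsf2 also had positive log2 fold changes, down to 0.0043 for Srsf7, and the list's median was 0.13.

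Among 8 protein-coding neighbours of Malat1 and Neat1, 2 had a p under 0.05, both lower in the TK-/- libraries, beside 5.64% of all genes tested in that direction. Frmd8, a partner of the shedding protease regulator iRhom, had a normalized CPM of 25.7 ± 1.05 and 20.1 ± 3.21 (SD, n = 4 each; log2 fold change -0.36, SE 0.12, FDR = 0.468 by edgeR). The groups did not overlap for this 1 gene of the 8, beside 4.98% of all genes tested. Ltbp3, a binding protein of latent TGF-beta, had a log2 fold change of -0.31 (SE 0.13, FDR = 0.538). The median of the 8 neighbours was -0.13, whereas those of Malat1 and Neat1 were above 0, and this difference in sign was not tested.

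**Figure D2:**
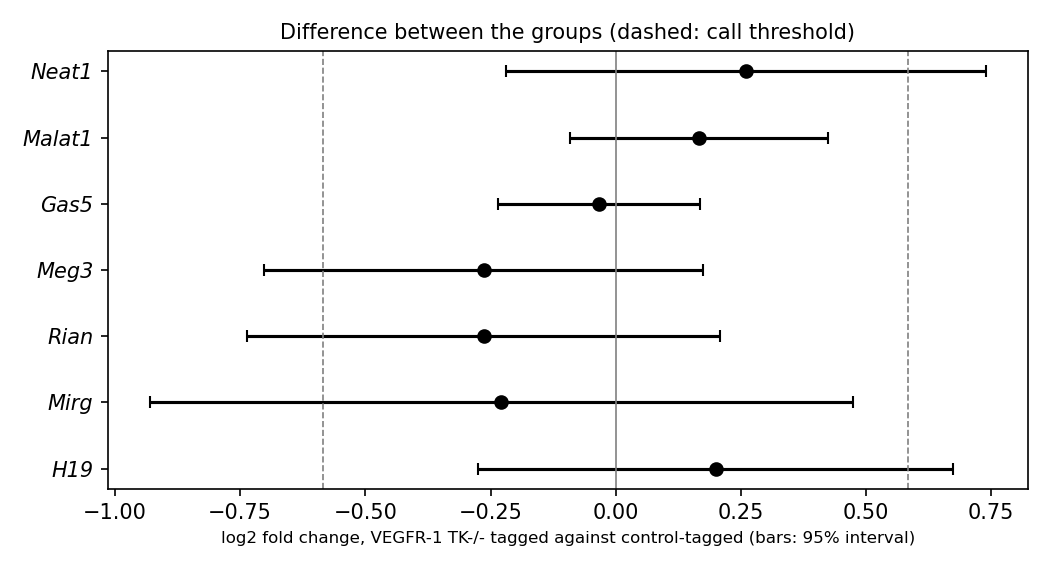
Log2 fold change of each RNA, TK-/- against control libraries, with its 95% interval as a bar (n = 4 per group), a grey line at 0 and dashed lines at the 1.5-fold call threshold in either direction. Every interval covers 0, the narrowest is that of Gas5 (-0.24 to 0.17) and the widest that of Mirg (-0.93 to 0.47).

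Meg3, Rian and Mirg lie in this order on the plus strand of chromosome 12, with gaps of 32.2 kb and 68.0 kb, and span 208 kb in all. The promoter window of Meg3 is shown because transcription of the maternal allele starts there. It was taken from RefSeq for chr12:109540746-109541045, plus strand, 250 bases before to 50 after the start, and the capitals mark TGACGTCA, the palindromic cAMP response element, whose first base lies 57 bases before the start. This motif reads the same on both strands and occurred in 588 of 32851 windows of this length (1.79%).
Meg3 promoter: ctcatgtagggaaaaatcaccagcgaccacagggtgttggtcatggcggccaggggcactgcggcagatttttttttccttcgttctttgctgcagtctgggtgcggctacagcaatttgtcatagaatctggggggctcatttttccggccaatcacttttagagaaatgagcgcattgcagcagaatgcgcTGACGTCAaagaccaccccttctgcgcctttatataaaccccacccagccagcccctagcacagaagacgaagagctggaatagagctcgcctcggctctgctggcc

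Meg3 (ENSMUSG00000021268, chr12:109541001-109571726) had the highest level of the Dlk1-Dio3 RNAs. Its normalized CPM in C1 to C4 was 25.2, 30.1, 25.7 and 26.3. T1 to T4 gave 29.3, 13.4, 19.2 and 27.4. T2 and T3 lay below every control library, and T1 and T4 lay within the control range. The means were 26.8 ± 2.22 and 22.3 ± 7.39 (SD, n = 4 each), and the log2 fold change was -0.26 with a 95% interval from -0.70 to 0.18 (SE 0.20, FDR = 0.727 by edgeR; exact permutation p = 0.371).

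Rian (ENSMUSG00000097451, chr12:109603940-109661716), the host of a cluster of C/D box snoRNAs, had normalized CPMs of 10.6, 13.0, 10.1 and 9.42 in C1 to C4. The values in T1 to T4 were 9.17, 5.67, 8.05 and 13.0. In 3 of 4 TK-/- libraries Rian was below the lowest control library, and T4 was level with the highest. The means were 10.8 ± 1.58 and 8.97 ± 3.04 (SD, n = 4 each), and the log2 fold change was -0.26 with a 95% interval from -0.74 to 0.21 (SE 0.22, FDR = 0.746 by edgeR; exact permutation p = 0.257). Without T4 the log2 fold change of Rian was -0.50, with an unadjusted p of 0.0257 in edgeR's test and an FDR of 0.451.

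Mirg (ENSMUSG00000097391, chr12:109729764-109749460), the host of a large microRNA cluster, was the least abundant of the RNAs, with 6 to 19 counts per library. Its normalized CPM in C1 to C4 was 1.05, 1.16, 1.28 and 1.20. T1 to T4 gave 1.14, 0.532, 0.868 and 1.43. The same libraries T2 and T3 were lowest as for Meg3. The exact Poisson 95% intervals were 2.20 to 13.1 for the 6 counts in T2 and 11.4 to 29.7 for the 19 in C3. These intervals overlap, but they cover counting error only, are not scaled for depth and are not a test of a difference. The means were 1.17 ± 0.0956 and 0.992 ± 0.384 (SD, n = 4 each), and the log2 fold change was -0.23 with a 95% interval from -0.93 to 0.47 (SE 0.32, FDR = 0.862 by edgeR; exact permutation p = 0.371).

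Over the 8 libraries, the proportions of the Dlk1-Dio3 RNAs spanned a narrower relative range than their levels. Of their summed counts, Meg3 made up 65.5% to 74.0%, Rian 23.2% to 31.0% and Mirg 2.62% to 3.44%. Within the control group this did not hold for Mirg, whose share was 3.04% ± 0.375% and whose level was 1.17 ± 0.0956 normalized CPM (SD, n = 4). The ratio of Meg3 to Rian counts was 2.51 ± 0.216 in the control and 2.51 ± 0.472 in the TK-/- libraries (SD, n = 4 each; exact permutation p = 0.971). Their summed level was 36.9, 44.3, 37.1 and 36.9 normalized CPM in C1 to C4, and 39.6, 19.6, 28.1 and 41.8 in T1 to T4. The sum in T2 was thus the lowest of all libraries, while the shares of the RNAs in that library stayed within the range of the others.

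Pearson r between the log2 levels over the 8 libraries was 0.89 for Meg3 and Rian (exact permutation p = 0.00429, 0.0526 adjusted over 21 pairs), 0.92 for Meg3 and Mirg (p = 0.00843, 0.0590 adjusted) and 0.89 for Mirg and Rian (p = 0.00501, 0.0526 adjusted). Spearman's rho was 0.67 (p = 0.0831), 0.62 (p = 0.115) and 0.67 (p = 0.0831) for the same pairs, each with an adjusted permutation p of 0.402. Without T2 and T3, the libraries farthest from the median of Meg3 and of Mirg, r was 0.33, 0.018 and 0.40. Without T2 alone it was 0.66, 0.70 and 0.68. Within the control group, which holds neither T2 nor T3, r was 0.84, 0.090 and -0.26. All these relations were thus weaker without T2 and T3, but that of Meg3 and Rian was also seen among the control libraries alone. None of the 21 pairs of RNAs had an adjusted p under 0.05.

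Fibroblast markers were also low in T2 and T3. The summed normalized CPM of 9 fibroblast markers was 2226, 2848, 1764 and 1783 in C1 to C4. In T1 to T4 it was 2304, 1373, 863 and 2197, and no marker was at 0. With the summed level of Meg3, Rian and Mirg, this list had an r of 0.73 on the log2 scale (permutation p = 0.0512, 0.373 adjusted over 45 relations of RNAs and marker lists) and a rho of 0.76 (p = 0.0368, 0.412 adjusted). The value of r was 0.82 without T2 and T3, 0.96 without T2 alone, and 0.87 and 0.65 within the control and TK-/- groups of 4. Leukocyte markers, also lowest in T2 and T3 at 381 and 301 summed normalized CPM, had an r of 0.69 with the same sum (permutation p = 0.0808, 0.404 adjusted) and the same rho of 0.76 (p = 0.0368, 0.412 adjusted), with an r of 0.87 without the 2 libraries farthest from their median and 0.92 without T2. Cardiomyocyte markers had an r of -0.46 (permutation p = 0.237, 0.667 adjusted) and, of the 9 marker lists, the rho farthest from 0 with this sum, -0.81 (p = 0.0218, 0.412 adjusted), with an r of -0.12 without the 2 farthest libraries and -0.79 without T2. Relations of similar size were seen for other RNAs. Neat1 had an r of 0.72 with Schwann cell markers (permutation p = 0.0377, 0.373 adjusted). Gas5 had an r of 0.77 with Schwann cell markers (permutation p = 0.0495, 0.373 adjusted). With mural cell markers its r was 0.74 (permutation p = 0.0428, 0.373 adjusted). H19 had an r of -0.71 with endothelial markers (permutation p = 0.0511, 0.373 adjusted). For Malat1 the r farthest from 0 was -0.55, with leukocyte markers. None of the 45 relations had an adjusted p under 0.05, and no difference between marker lists in these relations was tested. The part of cell content in the levels of the Dlk1-Dio3 RNAs, or of the other RNAs, was not tested. In bulk tissue fewer cells of a type and less RNA per cell cannot be told apart.

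Of the 8 markers of mural cells, such as pericytes, 4 had an unadjusted p under 0.05, all lower in the TK-/- libraries, beside 5.64% of all genes tested in that direction, with a list median of -0.46. Their sum ran from 1412 to 1999 normalized CPM in the control and from 1007 to 1535 in the TK-/- libraries, lowest in T2. Its r with the summed Dlk1-Dio3 RNAs was 0.75 (permutation p = 0.0413, 0.373 adjusted; rho 0.55, p = 0.171, 0.641 adjusted), 0.40 without the 2 libraries farthest from the marker median and 0.28 without T2. Endothelial markers, of which 4 of 8 had a p under 0.05 in the same direction (5.64% of all genes tested), summed to 1487 to 1839 and 1341 to 1491 normalized CPM. The r of this sum with the Dlk1-Dio3 RNAs was 0.64 (permutation p = 0.0800, 0.404 adjusted; rho 0.69, p = 0.0694, 0.433 adjusted). It was 0.61 without the 2 libraries farthest from the marker median and 0.44 without T2. Leukocyte markers, with 1 of 8 against the same 5.64%, summed to 439.99 to 574 and 301 to 464. Cardiomyocyte markers summed to 64781 to 100950 and 83528 to 103891 normalized CPM, so the groups overlapped. Of these 8 markers, 6 had a log2 fold change above 0 and 2 below, down to -0.09 for Actc1. At a p under 0.05 were 2, both higher in the TK-/- libraries, beside 3.32% of all genes tested in that direction. These were Tnni3, the cardiac troponin I gene (log2 fold change 0.36, FDR = 0.551 by edgeR), and Pln, an inhibitor of the sarcoplasmic calcium pump (0.32, FDR = 0.541), and the list's median was 0.18. No marker of these lists was at 0, and the part of these cells in the levels of the RNAs was not tested.

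**Figure D3:**
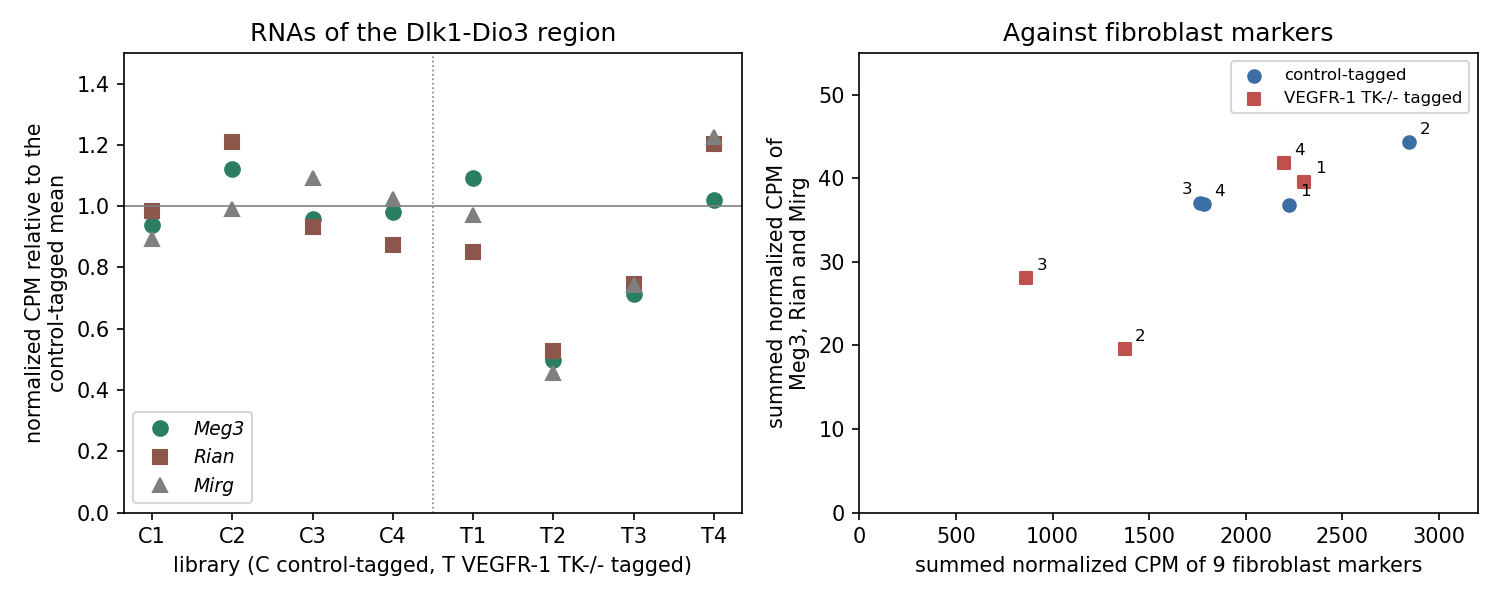
Left, normalized CPM of Meg3, Rian and Mirg in each library relative to the control mean of each RNA (C1 to C4 control, T1 to T4 TK-/-); right, the summed normalized CPM of these RNAs against that of 9 fibroblast markers, 1 point per library with its replicate number. The RNAs are low together in T2 and T3, at 19.6 and 28.1 summed normalized CPM beside 36.9 to 44.3 in the control libraries, and both libraries also have the lowest fibroblast marker sums, 1373 and 863.

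Of 8 protein-coding or imprinted neighbours of the Dlk1-Dio3 RNAs in the table, 5 passed the filter, 0 had a p under 0.05, and their median log2 fold change was -0.08, with Begain lowest at -0.28 (SE 0.44) and the transcription factor gene Yy1 highest at 0.05 (SE 0.11). The small RNAs hosted by these RNAs were close to absent from the table. The 13 snoRNA rows within Rian, the 4 microRNA rows within Rian and the 2 within Meg3 had no count, and of 15 microRNA rows within Mirg, 4 had counts, 7 reads in all libraries together. Counts of libraries of this kind cover the host RNAs and do not measure the mature microRNAs printed above.

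H19 (ENSMUSG00000000031, chr7:142575529-142578143, minus strand) had normalized CPMs of 9.12, 5.73, 5.78 and 5.99 in C1 to C4. In T1 to T4 the values were 5.44, 10.02, 6.87 and 8.28. C1 stood above the other control libraries, and T2, the library lowest in the Dlk1-Dio3 RNAs, was the highest of all. The means were 6.65 ± 1.65 and 7.65 ± 1.96 (SD, n = 4 each), and the log2 fold change was 0.20 with a 95% interval from -0.28 to 0.67 (SE 0.22, FDR = 0.815 by edgeR; exact permutation p = 0.457). The row of Mir675, which lies in an exon of H19, had no count.

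Igf2, the paternally expressed growth factor beside H19, had a normalized CPM of 28.3 ± 2.74 and 25.6 ± 5.60 (SD, n = 4 each; log2 fold change -0.14, SE 0.15, FDR = 0.809 by edgeR). Of 6 tested neighbours of H19, 0 had a p under 0.05. Of 19 tested imprinted genes of other and the same regions, 2 had a p under 0.05, both higher in the TK-/- libraries, beside 3.32% of all genes tested in that direction. The groups did not overlap for 3 of the 19, beside 4.98% of all genes tested, namely for this pair and for Mest, which was lower at a log2 fold change of -0.57 (SE 0.26, unadjusted p = 0.0518, FDR = 0.559 by edgeR). Peg3, a paternally expressed zinc finger gene, had 5.14 ± 1.25 and 8.60 ± 1.73 normalized CPM (SD, n = 4 each; log2 fold change 0.75, SE 0.20, FDR = 0.442 by edgeR). Zrsr1, a paternally expressed splicing factor gene, had 14.7 ± 2.06 and 20.0 ± 2.47 (log2 fold change 0.44, SE 0.13, FDR = 0.453). The list's median was -0.06, and 12 of the 19 had a log2 fold change below 0.

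Gas5 (ENSMUSG00000053332, chr1:161034422-161038539, plus strand) was the steadiest of the RNAs. Its RefSeq promoter window is shown because the Meg3 and Gas5 windows were the only ones of 7 windows, those of 5 of the RNAs, that held TGACGTCA. The window covers chr1:161034916-161035215, and the motif, in capitals, begins 46 bases before the start used by RefSeq, which lies inside the interval that GENCODE gives for the gene.
Gas5 promoter: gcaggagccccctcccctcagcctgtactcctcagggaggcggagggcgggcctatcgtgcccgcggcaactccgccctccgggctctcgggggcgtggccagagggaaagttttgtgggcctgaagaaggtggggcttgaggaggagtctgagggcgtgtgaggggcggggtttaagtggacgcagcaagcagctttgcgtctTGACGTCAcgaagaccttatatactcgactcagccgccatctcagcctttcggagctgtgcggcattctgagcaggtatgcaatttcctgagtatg

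The normalized CPM of Gas5 in C1 to C4 was 48.1, 49.2, 54.3 and 49.6. In T1 to T4 it was 52.3, 42.6, 50.3 and 51.3. T2 lay below every control library and the other TK-/- libraries lay within their range. The means were 50.3 ± 2.78 and 49.1 ± 4.39 (SD, n = 4 each), and the log2 fold change was -0.03 (SE 0.09, FDR = 0.937 by edgeR; exact permutation p = 0.743). Its 95% interval, from -0.24 to 0.17, spans folds from 0.849 to 1.12 and was the narrowest of the 7.

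The 10 snoRNA rows that lie in annotated exons of Gas5 had no count, and Zbtb37, which overlaps Gas5 on the other strand without sharing exon bases, had 117 to 149 counts per library. The 8 snoRNA rows within the span of Snhg1 held 264 counts. Per library, they held 30, 40, 25 and 21 counts in C1 to C4, and 34, 37, 38 and 39 counts in T1 to T4. Scaled for depth, the sums were 2.12 ± 0.581 and 3.04 ± 0.218 normalized CPM (SD, n = 4 each; exact permutation p = 0.0571), and C2 lay within the range of the TK-/- libraries. All 8 rows overlap annotated exons of Snhg1, so reads of the host RNA and of the snoRNAs cannot be told apart in them. Of all snoRNA rows, 37 of 162 that overlapped an exon of another gene in the table had a count (22.8%), and 134 of 1345 that did not (9.96%). How reads overlapping 2 genes were counted is not given in the sources used here.

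Lists of the kinds to which Gas5 belongs, and of the pathway that degrades it, gave few genes with a low p. Of 17 tested host genes of snoRNAs, 0 had a p under 0.05, with a median log2 fold change of 0.02 and a range from -0.28 for Snhg8 to 0.54 for Snhg11. Of 12 factors of nonsense-mediated decay, the pathway that degrades spliced Gas5, 1 had a p under 0.05, beside 8.96% of all genes tested, Upf3b, a bridge to the exon junction complex (log2 fold change 0.31, SE 0.14, FDR = 0.554 by edgeR). Of 18 other long noncoding RNAs, 0 had a p under 0.05, 14 had a log2 fold change above 0, and the median was 0.10. Mhrt, the antisense RNA of the Myh7 locus, had 74.1 ± 11.4 and 82.0 ± 9.36 normalized CPM (SD, n = 4 each; log2 fold change 0.15, SE 0.12, FDR = 0.756).

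**Figure D4:**
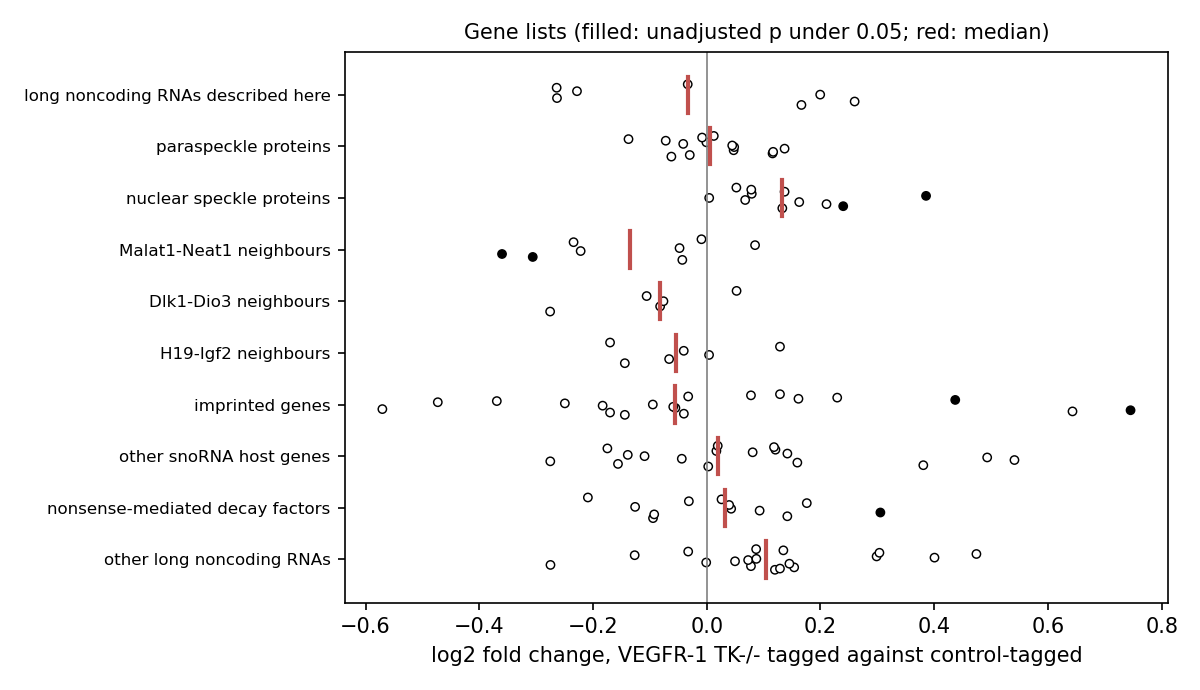
Log2 fold change, TK-/- against control, of each tested gene of the lists (1 circle per gene, filled where the unadjusted p is under 0.05) with the list's median as a red bar. The 7 long noncoding RNAs are all open circles between -0.26 and 0.26, and the 11 nuclear speckle proteins all lie above 0 with a median of 0.13.

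The levels of the RNAs spanned a wide range in the LV, and not all were abundant. By normalized CPM, which is not corrected for length, Neat1 stood above 99.5%, Malat1 above 95.4% and Gas5 above 74.6% of the genes tested. Meg3 stood near the middle at 55.8%, while Rian, H19 and Mirg stood at 34.2%, 28.7% and 4.73%. Among all genes of a library ranked by count, Neat1 was between 43rd and 120th and Mirg between 12422nd and 13805th.

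Per kilobase of annotated exon, the median normalized CPM over the 8 libraries was 61.9 for Neat1, 33.8 for Malat1, 13.3 for Gas5, 2.61 for H19, 1.44 for Meg3, 0.535 for Rian and 0.157 for Mirg. On this scale H19 stood above Meg3 and Rian, although its normalized CPM was below that of Meg3 in every library and below that of Rian in every library but T2, and its exons cover 2460 bases and those of Meg3 and Rian 18089 and 18234. No library of one RNA overlapped a library of its neighbour in this order, as shown by the lowest Meg3 value of 0.740 beside the highest Rian value of 0.716. With the length of the longest transcript instead, the order was the same, but Meg3 (0.920 to 2.07) and Rian (0.702 to 1.61) overlapped. For Neat1 and Malat1 both lengths are the same, 20771 and 6983 bases, so this change of length does not check their values. The annotated exons of Gas5 cover 3760 bases of its 4.12 kb span and hold its 10 snoRNA rows, so they include intron sequence. The level of Gas5 per kilobase of its spliced RNA, and so its place in this order, was not tested.

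**Figure D5:**
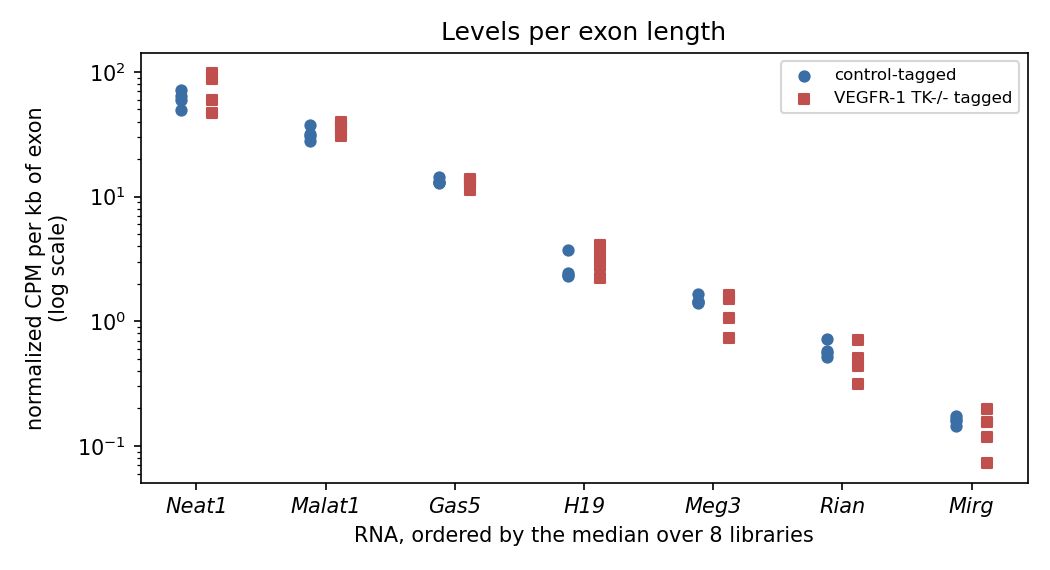
Normalized CPM per kilobase of annotated exon (log scale) of the 7 RNAs in each library, ordered by the median over the 8 libraries, with circles for control and squares for TK-/- libraries. The medians run from 61.9 for Neat1 to 0.157 for Mirg, and the ranges of neighbouring RNAs do not overlap on this scale.

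The spread between libraries differed between the RNAs. The coefficient of variation in the control group was 5.52% for Gas5, 8.17% for Mirg, 8.28% for Meg3, 12.7% for Malat1, 14.7% for both Neat1 and Rian, and 24.8% for H19. In the TK-/- group it was 8.94% for Gas5, 10.7% for Malat1, 25.6% for H19, and 33.1% to 38.7% for Meg3, Neat1, Rian and Mirg. The difference in spread between the groups was not tested. The within-group SD on the log2 scale was above that of 79.4% to 84.5% of the genes tested for Neat1, Meg3, Mirg, Rian and H19, and above that of 36.2% for Malat1 and 12.9% for Gas5. For Mirg, with 6 to 19 counts per library, these measures of spread also hold counting error. The exact Poisson 95% interval of the 14 counts in C1 runs from 7.65 to 23.5. The place of Mirg in these orders therefore does not show how steady it was.

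The differences moved with single libraries. T2 was the lowest of the 8 libraries for Neat1, Meg3, Rian, Mirg and Gas5, and the highest for H19, and it also had the fewest counts, 11449137. Without it, the log2 fold change of Neat1 was 0.42 (unadjusted p = 0.0504, FDR = 0.940 by edgeR), that of Meg3 was -0.09, that of Rian -0.10, that of Mirg -0.035, that of H19 0.043 and that of Gas5 0.026. The log2 fold change of Malat1 was 0.16 without this library, beside 0.17 with it. Meg3 and Gas5 moved most without T2, and the other RNAs moved further without another library. The log2 fold change of Neat1 was 0.08 without T3 (unadjusted p = 0.712, FDR = 0.955 by edgeR). Without T4, Rian stood at -0.50 and Mirg at -0.46. H19 stood at 0.39 without C1, and Malat1 at 0.25 without C4.

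RNAs without a poly(A) tail, other than the long Neat1 and Malat1, were looked at because of the contradiction on the library type. Of 23 genes listed for such RNAs, 4 passed the filter, all of them histone genes such as Hist1h2bc. At 0 in every library were 5, including the signal recognition particle RNAs Rn7s1 and Rn7s2. Hist1h2bc had 66.0 ± 12.7 and 65.8 ± 5.35 normalized CPM (SD, n = 4 each), most of the list's sum. Whether the transcripts counted in these rows lacked a tail was not tested. The list summed to 78.6 to 112 normalized CPM in the control and 89.1 to 104 in the TK-/- libraries, so the groups overlapped. The part of the library type in the levels of Malat1 and Neat1 was not tested.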

How the data were processed

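RNA of the LV was sequenced in 8 libraries, 4 per group. The labels do not name the mouse behind a library, so n counts libraries and p-values measure the spread between them. The authors trimmed reads with Trim Galore 0.4.4, aligned them to GRCm38 with STAR 2.5.4b and deposited raw gene counts, not normalized, from featureCounts with GENCODE genes. Whether counting used strand or reads with several alignments is not given in the sources used here. Without strand, reads of antisense genes such as Gm26906 in Meg3 could be added to the Meg3 row. Reads where the exons of both genes overlap could also be lost from that row. Reads of the short and long Neat1 share 1 row.

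Libraries were grouped by their names, with a later GENCODE release on GRCm38 for coordinates and lengths. Counts were tested with the quasi-likelihood test of edgeR 4.0.16 (R 4.3.3; TMM, all 8 libraries, no covariates, prior count of 2). DESeq2 1.42.0, the likelihood ratio test, which the study used, other scalings and filters, left-out libraries and a replicate block were alternatives. Tests were checked on simulated data. Permutation tests and figures used Python 3.11.15, scipy 1.17.1 and matplotlib 3.10.9. Library pairs of a group differed by more than sampling noise (chi-square per degree of freedom 6.77 to 49.9).

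The RNAs and lists were chosen with earlier results of these data known. Named genes were the 7 RNAs, Flt1, per list at most the 2 lowest and 2 highest log2 fold changes among genes with an unadjusted p under 0.05, genes lying in or overlapping the RNAs, and the 2 genes most like each RNA. The genes named as the ends of a list's range, examples of a list, Igf2, Mest, Srsf1 and Mhrt were chosen after their values were seen, as were the relations with marker lists.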

Additional observations from a re-analysis of the deposited data

Results flagged for a closer look

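H19 in C1, at a normalized CPM of 9.12, lay far above the other control libraries, which lay between 5.73 and 5.99. Its gap to the nearest library was above Dixon's 95% critical value for 4 samples. In all, 14 groups of 4 libraries were checked, 7 RNAs in each genotype group, and chance alone marks about 1 in 20 groups. Without this library the log2 fold change of H19 was 0.39 (unadjusted p = 0.0950, FDR = 0.578 from edgeR).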

How the results depend on the processing

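The number of RNAs called was 0 under every alternative run. Among all genes tested, 53 were called by the likelihood ratio test, 32 by DESeq2, 23 without a filter on low counts and 1 to 3 with a library left out, where the main test called 1; the cause was not tested. The number of RNAs with an unadjusted p under 0.05 was 0 to 1 with a library left out, the 1 being Rian without T4. The log2 fold change of Gas5 turned to 0.0036 without C3 and to 0.026 without T2; the other 6 RNAs kept their direction under all 16 alternatives. Over these, the log2 fold change ranged from 0.10 to 0.25 for Malat1, 0.08 to 0.42 for Neat1, -0.065 to 0.026 for Gas5, -0.42 to -0.09 for Meg3, -0.50 to -0.10 for Rian, -0.46 to -0.035 for Mirg and 0.043 to 0.39 for H19. With the replicate block, 1 gene and 0 RNAs were called, and 89 genes in the likelihood ratio test with the block, which was added after seeing the data. Same-numbered libraries had correlations of -0.03, 0.03, 0.34 and -0.06 of their deviations from the group means, and 1 of 4 libraries correlated best with its own number. These few correlations cannot decide whether the numbers pair the libraries. For Mirg, 6 to 19 counts per library limit the precision, and DESeq2 gave it no adjusted p.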

Other observations

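For each RNA, the 2 of all tested genes with the most similar group-centred log2 level over the 8 libraries are given as a description, since the highest of 13542 correlations over 8 libraries are large by selection. For Malat1 these were Wtap, a subunit of the m6A writer complex (r 0.96), and Tprn (0.94). For Neat1 they were Adgrg1, an adhesion receptor (0.97), and Fgfr3 (0.97). Meg3 was most like Pyroxd2 (0.98) and Rasl12 (0.96), and Rian most like Ror1, a Wnt5a receptor (0.99), and Adgrl2 (0.97). The genes most like Mirg were Scara3 (0.97) and Mboat1 (0.97), those most like H19 were Lyrm9 (0.98) and Cript (0.97), and those most like Gas5 were S100b (0.97) and Actn4 (0.97).

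Of these 14 genes, Rasl12, Ror1, Lyrm9 and Actn4 had an unadjusted p under 0.05 between the groups, beside 8.96% of all genes tested. None of the 14 was called. Lyrm9 was higher in the TK-/- libraries (log2 fold change 0.31), and Ror1 (-0.35), Rasl12 (-0.32) and Actn4 (-0.27) were lower.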
